A study of Homo sapiens with 12 samples.

Results

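The cells described here are SCC1 cells, an established line of head and neck squamous cell carcinoma (HNSCC) that is sensitive to cetuximab. They were chosen by their sample labels and make up 5270 of the 23914 cells of the series. The series holds 12 samples of 3 such lines, SCC1, SCC6 and SCC25, whose 3′ transcript ends were read cell by cell with droplet scRNA-seq (single-cell RNA sequencing). In SCC1, 2 samples had received 100 nM cetuximab daily over 5 days, from 24 hours after the cells were seeded, and 2 had received phosphate-buffered saline (PBS) as untreated controls. All samples were grown in medium with 10% fetal bovine serum, which supplies growth factors to treated and control cells alike. The cetuximab samples held 961 and 1380 cells (replicates 1 and 2) and the PBS samples 1263 and 1666 cells. The model is a single tumour line in culture, so each result is about that line. Below, values of a pair of samples are always given in the order replicate 1, replicate 2.

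Cetuximab is an antibody that binds the epidermal growth factor receptor (EGFR), keeps its ligands away and so lowers signalling through RAS and the kinases MEK and ERK. In squamous epithelium this receptor drives division of basal cells and holds back differentiation, and its blockade is known to raise interferon-stimulated genes in keratinocytes. Interferon signalling runs from a receptor through JAK kinases to transcription factors that bind the interferon-stimulated response element (ISRE) in front of antiviral genes. Transforming growth factor beta (TGF-beta) and the co-activator YAP, in turn, switch on genes of the contractile cytoskeleton and of the extracellular matrix.

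The labels were first checked against markers. All 12 genes of a squamous epithelial list, among them KRT5, KRT14, TP63 and CDH1, were measured in all 4 samples. Of 8 leukocyte genes, PTPRC, which all leukocytes carry, NKG7 and TYROBP had no unique molecular identifier (UMI) in any sample, and CD3E and LYZ had 0 to 3. CD14 had 700 to 1289 UMIs and CD68 had 608 to 1107, and neither was called for cetuximab. The summed level of the leukocyte list was 27.7 and 15.2 CPM (UMIs scaled to library size) with cetuximab and 20.9 and 22.6 CPM with PBS, and that of 8 fibroblast genes was 32.0 and 31.7 CPM with cetuximab and 16.5 and 16.2 CPM with PBS. The fibroblast list is described with the matrix genes. Libraries held 57057402 to 91904880 UMIs, with a median of 45993 to 54864 UMIs per cell and a median mitochondrial share of 2.49% to 3.29%. Pairs of SCC1 libraries shared 1 to 4 cell barcodes.

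To ask which genes responded to cetuximab, UMIs were summed per sample and tested across all genes with edgeR, with the samples paired by replicate number. A call is an adjusted p (false discovery rate, FDR) of at most 0.05, and errors of log2 fold changes are standard errors (SE). Of 17897 genes tested, 797 were called, which is 4.45%. Among them 440 were higher with cetuximab (2.46%) and 357 were lower (1.99%), and the median log2 fold change over all genes was 0.00. At least 2-fold changes made up 295 of the rises and 160 of the falls. At the share of 4.45%, a short list can hold few or no calls without differing from all genes. The gene lists below were chosen with earlier results of these data known, so their counts and medians are descriptions without independent support. The calls rest on the pairing: replicates 1 and 2 differed from each other in like manner with and without drug, and a fit that ignored the replicate number called only SULT1E1, CD24 and ACHE. Leaving out the first pair of SCC1 samples left 40 calls and leaving out the second left 269, with the lone pair then assumed to vary like those of the other lines. All 797 kept their direction in both cases, but the pair that stayed had itself helped to make the calls, so this is no independent check. SCC6 and SCC25 samples entered the same fit, so p-values and SE rest on the spread left after pairing in all lines together. They do not measure the spread between the SCC1 libraries alone. Whether replicates are separate cultures is not stated without doubt, so the spread between libraries may be technical.

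**Figure D1:**
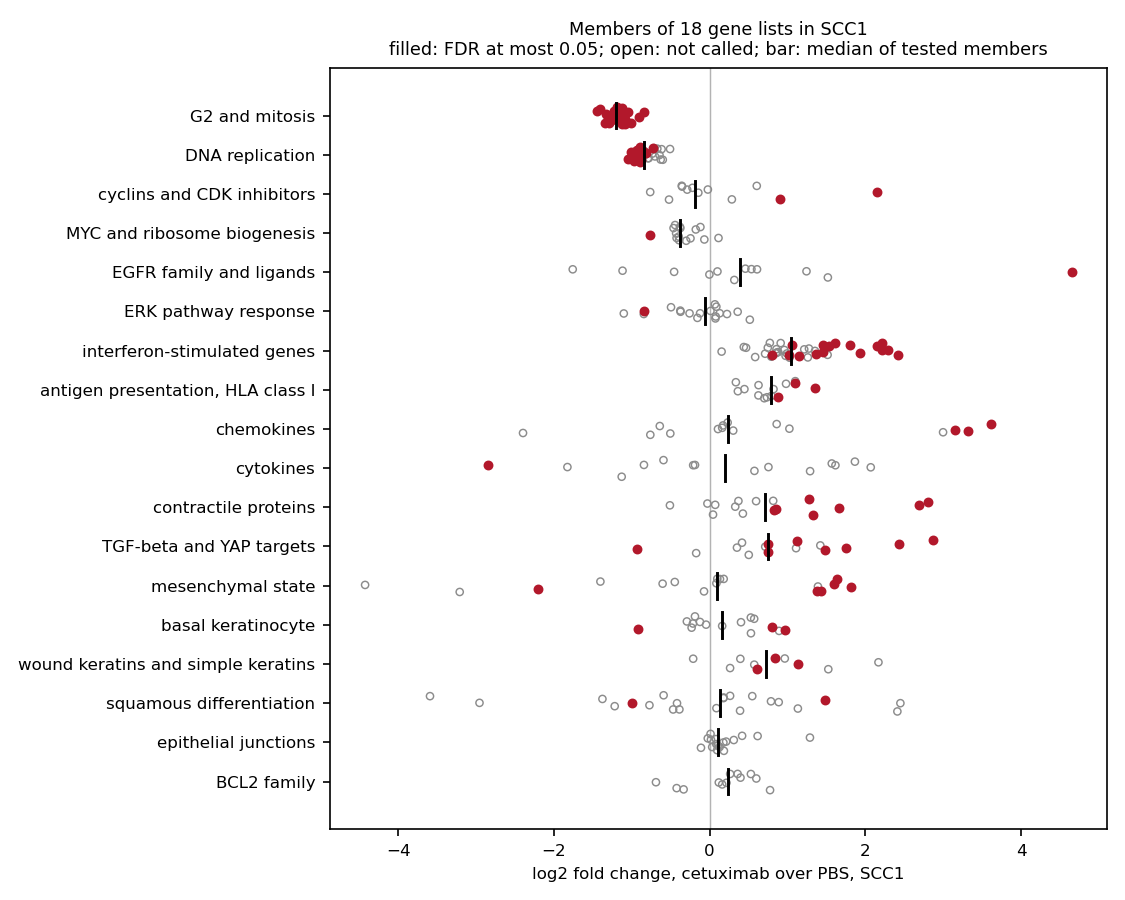
Log2 fold change of cetuximab over PBS in SCC1 for each tested member of 18 gene lists (one list per row), with filled points for FDR of at most 0.05, open points for the rest and a bar at the list's median. All 32 members of the G2 and mitosis list lie to the left of 0 and all 38 interferon-stimulated genes to the right, while most lists straddle 0.

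Genes of cell division fell with cetuximab. The list of G2 and mitosis genes holds regulators of entry into mitosis, spindle motors and kinetochore proteins. All 32 were tested and all 32 were called lower, with log2 fold changes from -1.45 to -0.84 and a median of -1.21. MKI67, the proliferation marker Ki-67, stood at 53.7 and 88.4 CPM with cetuximab and 180.2 and 169.7 CPM with PBS. Both cetuximab samples lay under both PBS samples, and the fitted change was a 2.54-fold fall (log2 fold change -1.34 ± 0.20, FDR = 0.0151). CENPF, a kinetochore protein, stood at 30.7 and 65.97 CPM with cetuximab and 113 and 135 CPM with PBS, the largest fall on the list (-1.45 ± 0.22, FDR = 0.0153). PLK1, the kinase that drives mitotic entry, stood at 20.8 and 61.6 CPM with cetuximab and 70.3 and 115 CPM with PBS (-1.33 ± 0.20, FDR = 0.0153). Here too the groups did not overlap, but the second cetuximab sample came within reach of the first PBS sample. TOP2A, the topoisomerase that untangles chromosomes, showed the same order at 35.4 and 88.6 CPM with cetuximab and 109 and 167 CPM with PBS (-1.27 ± 0.18, FDR = 0.0136). CCNB1, the cyclin partner of CDK1, was an exception to the separation, with 38.3 and 99.2 CPM with cetuximab and 96.8 and 189.6 CPM with PBS, so that its call (-1.14 ± 0.16, FDR = 0.0139) came from the difference within each pair. In 29 of the 32 genes both cetuximab samples lay under both PBS samples, which was so for 20.4% of all genes.

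The size of the fall differed between the pairs. The summed level of the 32 genes was 818 and 1734 CPM with cetuximab and 2396 and 3139 CPM with PBS, lowest in cetuximab replicate 1. With the first pair alone the median log2 fold change was -1.54 and 29 genes were called lower. With the second pair alone the median was -0.85 and no gene of the list was called.

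The genes that copy DNA fell less far. Of 28 DNA replication genes 13 were called lower, none higher, and all 28 had a negative log2 fold change, with a median of -0.84. MCM3, a subunit of the replicative helicase, stood at 19.6 and 46.5 CPM with cetuximab and 43.4 and 72.8 CPM with PBS (-0.89 ± 0.18, FDR = 0.0335). TYMS, which makes thymidylate, stood at 72.1 and 138 CPM with cetuximab and 169 and 202 CPM with PBS (-0.89 ± 0.20, FDR = 0.0477), and both cetuximab samples were the lower ones. UHRF1, which carries DNA methylation through replication, stood at 5.18 and 10.9 CPM with cetuximab and 12.8 and 17.1 CPM with PBS (-0.97 ± 0.18, FDR = 0.0267). MCM2, with 10.4 and 26.02 against 24.1 and 39.5 CPM, and RRM2, a subunit of ribonucleotide reductase, with 59.4 and 119 against 118 and 163 CPM, did not pass (FDR = 0.0624 and 0.14). With the second pair alone none of the 28 was called, and with the first alone 4 were. With the 5% deepest cells of each sample left out, 6 were called.

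Promoters of these lists were read from RefSeq windows of GRCh38.p14 reaching from 250 bases before to 50 bases after the gene start, and searched on both strands for fixed letters. The cell cycle homology region (CHR, TTTGAA) was present in 19 of 27 G2 and mitosis promoters found in the table (70.4%) and in 15.4% of all 27305 promoters. An E2F site (TTTGGCGC or TTTCCCGC) was present in 16 of 25 DNA replication promoters (64%) and in 2.31% of all. The 5 stretches below carry the motif of genes of these lists and are written along the gene's strand, with the motif in capitals. They are PLK1 (chr16:23678820-23678888, plus strand), CCNB2 (chr15:59105077-59105145, plus strand), TOP2A (chr17:40418011-40418130, minus strand), MCM3 (chr6:52284837-52284956, minus strand) and UHRF1 (chr19:4909447-4909500, plus strand). A match to such letters is a description of the sequence and not a measured binding site.
PLK1: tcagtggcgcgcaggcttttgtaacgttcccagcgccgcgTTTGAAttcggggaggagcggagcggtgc
CCNB2: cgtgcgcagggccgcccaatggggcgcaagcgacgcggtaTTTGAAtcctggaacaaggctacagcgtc
TOP2A: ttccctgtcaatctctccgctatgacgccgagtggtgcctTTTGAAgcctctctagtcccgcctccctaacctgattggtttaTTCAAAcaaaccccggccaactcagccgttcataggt
MCM3: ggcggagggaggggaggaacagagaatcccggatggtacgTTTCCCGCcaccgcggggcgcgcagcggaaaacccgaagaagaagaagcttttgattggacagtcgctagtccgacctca
UHRF1: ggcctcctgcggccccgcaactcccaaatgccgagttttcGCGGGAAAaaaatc

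Per cell, the fall appeared as more cells without division transcripts. Each cell was thinned to 15000 UMIs, which left out 23 and 33 shallower cetuximab cells and 48 and 26 PBS cells. At that depth, at least 1 MKI67 UMI was found in 21.5% and 37.8% of cetuximab cells and 64.3% and 59.1% of PBS cells. For TOP2A the shares were 17.8% and 36.4% of cetuximab cells and 49.4% and 51.2% of PBS cells. CDK1, the kinase of mitotic entry, was found in 21.7% and 38.2% of cetuximab cells and 46.3% and 49.02% of PBS cells, so that cetuximab replicate 1 was lowest throughout. The 32 genes of the G2 and mitosis list together gave a median of 1 and 6 UMIs per cell with cetuximab and of 22 and 23 with PBS. Cells with at least 10 such UMIs made up 23.2% and 44.5% of cetuximab cells and 69.1% and 66.6% of PBS cells. No UMI of the list was seen in 27.7% and 6.90% of cetuximab cells and in 3.05% and 2.07% of PBS cells. Cells with many division transcripts were thus present in all 4 samples, in smaller shares with cetuximab. For background, the liver and red blood cell genes ALB, HBB, HBA1 and APOA1 were found in 0% to 0.165% of cells of a sample at that depth, the highest share being that of APOA1, but such genes do not measure free RNA released by the SCC1 cells themselves. Of the leukocyte genes, CD14 was found in 11.9% and 11.9% of cetuximab cells and 11.9% and 16.9% of PBS cells and CD68 in 22.7% and 9.58% of cetuximab cells and 14.98% and 13.2% of PBS cells, and the other 6 in at most 0.107% of cells of a sample.

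**Figure D2:**
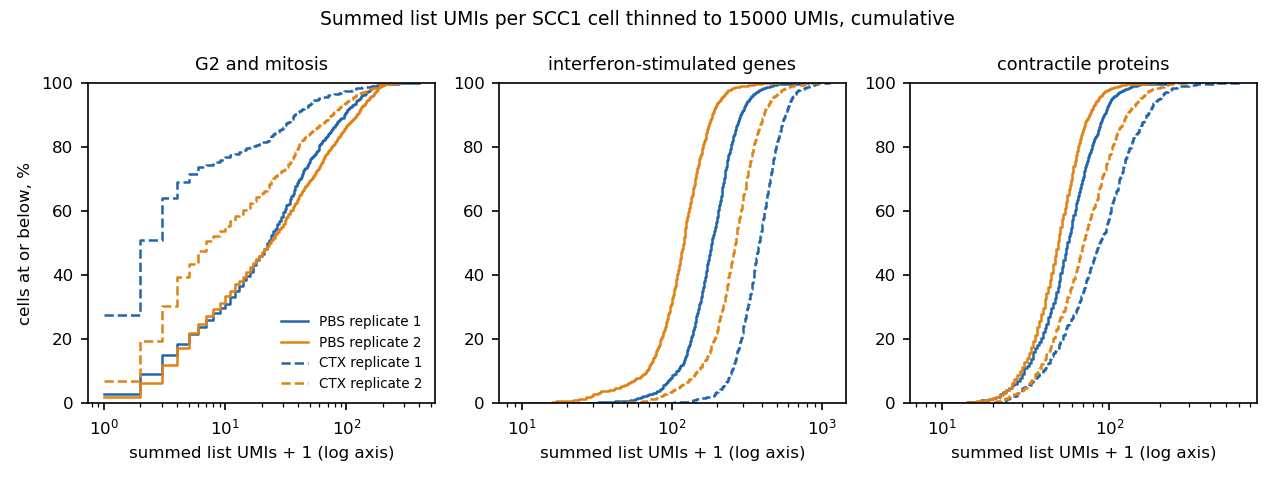
Cumulative share of SCC1 cells (vertical axis, %) against the summed UMIs of a gene list per cell plus 1 (horizontal log axis), each cell thinned to 15000 UMIs, with solid lines for PBS, dashed lines for cetuximab and one colour per replicate number. Cetuximab curves lie to the left of the PBS curves for G2 and mitosis genes (medians of 1 and 6 against 22 and 23 UMIs) and to the right for interferon-stimulated genes and contractile proteins.

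Of 12 cyclins and inhibitors of cyclin-dependent kinases, 2 inhibitors were called higher, where 2.46% of all genes were. A negative log2 fold change was found for 8 of the 12, and for 8806 of all 17897 genes tested. CDKN2B, which encodes p15 and restrains CDK4 and CDK6, stood at 125 and 64.6 CPM with cetuximab and 23.1 and 17.6 CPM with PBS. Both cetuximab samples lay well over both PBS samples, a 4.45-fold rise (2.15 ± 0.17, FDR = 0.00273). At 15000 UMIs it was found in 72.6% and 51.7% of cetuximab cells and 29.1% and 22.7% of PBS cells. CDKN1A, which encodes p21, stood at 68.1 and 54.1 CPM with cetuximab and 32.9 and 31.7 CPM with PBS (0.91 ± 0.17, FDR = 0.0281). The other 10 genes of the list were not called, among them CCND1 at 586 and 528 against 463 and 449 CPM and CDKN1B at 14.5 and 18.3 against 18.1 and 19.98 CPM. Of 15 MYC target and ribosome biogenesis genes, 14 had a negative log2 fold change (median -0.38). FBL, the methyltransferase of ribosomal RNA, alone was called lower (42.6 and 64.1 against 74.6 and 107 CPM, -0.77 ± 0.13, FDR = 0.0208), where 1.99% of all genes were.

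No change of the receptor itself was called. EGFR stood at 65.6 and 80.4 CPM with cetuximab and 61.9 and 74.1 CPM with PBS, and the replicates of each group differed by more than the groups did (0.10 ± 0.13, FDR = 0.744). Its partners ERBB2 and ERBB3 stood at 30.9 and 30.9 against 21.9 and 23.02 CPM and 30.5 and 23.7 against 22.1 and 21.04 CPM. For ERBB2 both cetuximab samples lay over both PBS samples, without a call (FDR = 0.0733). Of 12 genes of the receptor family and its ligands 1 was called, a ligand gene, where 4.45% of all genes were called. AREG, which encodes amphiregulin, stood at 89.995 and 127 CPM with cetuximab and 243 and 222 CPM with PBS. Although these groups did not overlap, the change was not called, with a wide error (-1.12 ± 0.69, FDR = 0.422). EREG, which encodes epiregulin, stood at 1.72 and 3.97 against 7.99 and 10.2 CPM and was not called either (-1.76 ± 0.51, FDR = 0.0978). EGF was called higher (FDR = 0.0167) from 20 and 8 UMIs with cetuximab and 1 and 0 with PBS, so that it stayed a rare transcript in all samples.

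Genes that report ERK activity gave 1 call after 5 days, near the share of 4.45% called over all genes. Of 18 in the list, DUSP6, the phosphatase that switches ERK off and is itself induced by ERK, was the one called. It stood at 12.4 and 16.1 CPM with cetuximab and 24.3 and 26.8 CPM with PBS, a 1.801-fold fall with both cetuximab samples under both PBS samples (-0.85 ± 0.18, FDR = 0.0402). PHLDA1 at 19.2 and 28.6 against 48.8 and 51.99 CPM, FOSL1 at 16.4 and 15.8 against 31.8 and 26.2 CPM and ETV4 at 30.5 and 42.9 against 47.6 and 54.5 CPM were not called. The median log2 fold change of the list was -0.06. Outside the list, DUSP9, another ERK phosphatase, was among the largest falls of all genes, with 3.998 and 11.1 CPM with cetuximab and 17.2 and 33.7 CPM with PBS (-1.84 ± 0.17, FDR = 0.00273). Among 14 other receptor kinases none was called. AXL, a receptor linked to resistance against EGFR blockade, stood at 117 and 108 CPM with cetuximab and 166 and 116 CPM with PBS, and its groups overlapped (-0.30 ± 0.18, FDR = 0.407). MET stood at 82.6 and 69.2 against 61.4 and 46.6 CPM (0.50 ± 0.15, FDR = 0.107). TFAP2A, the transcription factor followed by the study, stood at 125 and 116 CPM with cetuximab and 128 and 131 CPM with PBS (-0.11 ± 0.12, FDR = 0.7), with both cetuximab samples just under both PBS samples.

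Interferon-stimulated genes rose together. All 38 of the list were tested, 16 were called higher, none lower, and all 38 had a positive log2 fold change, with a median of 1.04. In 34 of them both cetuximab samples lay over both PBS samples, which was so for 22.3% of all genes. The summed level of the list was 23469 and 16445 CPM with cetuximab and 11389 and 7743 CPM with PBS, with replicate 1 over replicate 2 in both groups. With one pair left out, 3 genes (without replicate 1) or 5 (without replicate 2) were called, while the medians were 1.13 and 1.08. Leaving out a pair thus moved the median little and the number of calls much.

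The effectors of the antiviral state led the list. OASL, an oligoadenylate synthetase relative that enhances RNA sensing, stood at 151 and 79.6 CPM with cetuximab and 30.4 and 13.7 CPM with PBS. Its groups were far apart, a 5.36-fold rise (2.42 ± 0.17, FDR = 0.00105). RSAD2, the antiviral enzyme viperin, stood at 212 and 110.1 CPM with cetuximab and 45.1 and 21.6 CPM with PBS (2.29 ± 0.33, FDR = 0.0136). IFIT1 and IFIT2 bind foreign RNA or its translation machinery. IFIT1 stood at 646 and 514 CPM with cetuximab and 143 and 108 CPM with PBS (2.22 ± 0.43, FDR = 0.0301), and IFIT2 stood at 699.8 and 367 CPM with cetuximab and 136 and 87.4 CPM with PBS (2.21 ± 0.19, FDR = 0.00247). ISG15, a ubiquitin-like protein and the most abundant of these, stood at 5542 and 3319.6 CPM with cetuximab and 2239.7 and 1099 CPM with PBS (1.45 ± 0.28, FDR = 0.029). Cetuximab replicate 2 and PBS replicate 1 were closest here, still without overlap. MX1, a dynamin-like antiviral GTPase, rose 2.08-fold (390.1 and 405 against 208 and 176 CPM, 1.05 ± 0.14, FDR = 0.0148).

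The ISRE was searched as TTTCNNTTTC in the same promoter windows. It was present in 18 of 30 promoters of interferon-stimulated genes found in the table (60%) and in 3.65% of all promoters, whereas AP-1 sites (TGANTCA) were present in 10% of these promoters and 7.76% of all. Stretches of 3 genes that carry the rise of the list and of the chemokines are shown, with the ISRE in capitals, where neighbouring matches may overlap. They are IFIT1 (chr10:89392467-89392586, plus strand), ISG15 (chr1:1013344-1013463, plus strand) and CXCL10 (chr4:76023628-76023747, minus strand).
IFIT1: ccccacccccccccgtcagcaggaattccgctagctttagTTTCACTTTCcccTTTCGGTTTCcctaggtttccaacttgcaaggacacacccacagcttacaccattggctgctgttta
ISG15: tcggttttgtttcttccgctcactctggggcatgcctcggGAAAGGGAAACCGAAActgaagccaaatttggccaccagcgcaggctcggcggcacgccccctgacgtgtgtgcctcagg
CXCL10: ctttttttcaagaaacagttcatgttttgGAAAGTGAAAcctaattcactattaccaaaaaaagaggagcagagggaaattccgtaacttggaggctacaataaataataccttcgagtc

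The rise of interferon-stimulated genes reached most cells. Summed over the list, the median cell held 381.5 and 265 UMIs with cetuximab and 184 and 119 with PBS at 15000 UMIs per cell. The 10th percentile of cetuximab cells (248.4 and 147.2) lay over the median of the PBS cells of the same replicate number. IFIT1 was found in 98.3% and 96.5% of cetuximab cells and 73.3% and 64.5% of PBS cells. IFIT2 was found in 96.2% and 88.7% of cetuximab cells and 64.2% and 53.4% of PBS cells, and RSAD2 in 84.01% and 58.4% of cetuximab cells and 30.4% and 16.1% of PBS cells. Within each sample, cells with more G2 and mitosis UMIs tended to have fewer interferon UMIs. The Spearman correlation between both lists across cells was -0.30 and -0.29 with cetuximab and -0.08 and -0.11 with PBS, a description across cells that share a library and a fixed depth.

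IFNB1, which encodes interferon beta, was a rare transcript. It had 84 and 19 UMIs with cetuximab and 10 and 8 with PBS and was not called (FDR = 0.144). In the list of interferons, receptors and signalling only SOCS1, the feedback inhibitor of JAK kinases, was called among 16 genes, near the share over all genes. SOCS1 stood at 18.98 and 11.5 against 8.55 and 5.898 CPM (1.06 ± 0.22, FDR = 0.0382). The highest log2 fold change of the list was 5.77, in a member that was not called. Antigen presentation by HLA class I followed the interferon-stimulated genes in direction. All 15 genes had positive log2 fold changes, with a median of 0.79, and 3 were called higher, where 2.46% of all genes were. B2M, the light chain, stood at 6695 and 5544 CPM with cetuximab and 3554 and 3099 CPM with PBS (0.88 ± 0.20, FDR = 0.0477). TAP1, the peptide transporter, stood at 259 and 174 CPM with cetuximab and 82.2 and 83.4 CPM with PBS (1.36 ± 0.31, FDR = 0.047). HLA-B, a heavy chain, at 2531 and 2094 against 1018 and 1133 CPM showed the same separation without a call (FDR = 0.0645). Heavy chain genes are close copies of each other, and reads that match more than 1 of them could be split or dropped, so the values of HLA-B are uncertain. With either pair left out, and also without the 5% deepest cells, no gene of this list was called.

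**Figure D3:**
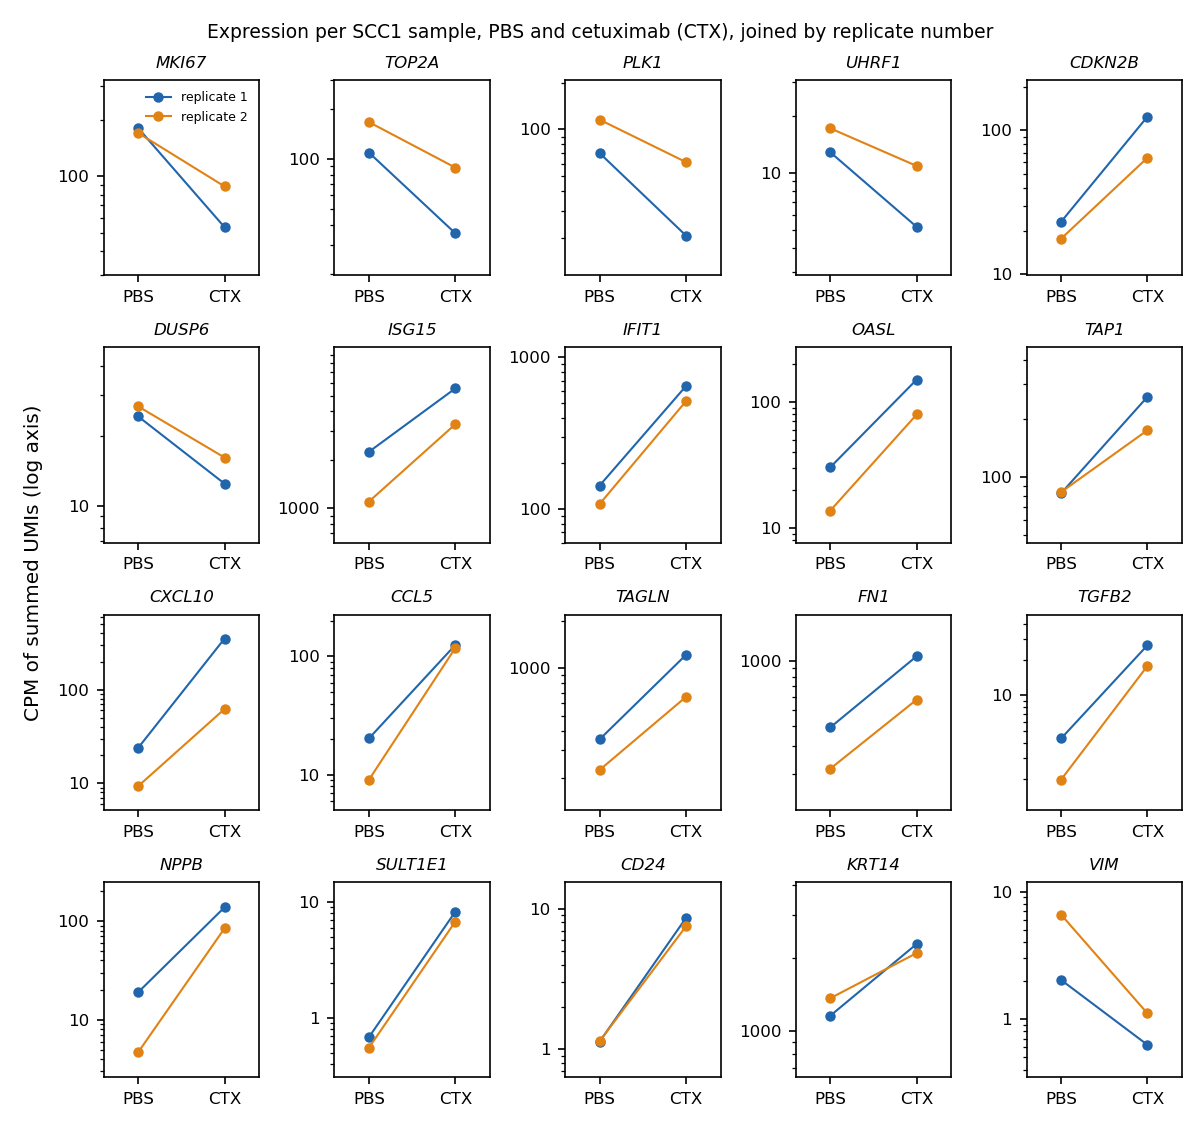
CPM of 20 genes in each SCC1 sample (vertical log axis, one panel per gene), with PBS on the left and cetuximab (CTX) on the right and a line joining samples of equal replicate number. Lines run downwards in both pairs for MKI67, TOP2A, PLK1, UHRF1, DUSP6 and VIM and upwards in both pairs for the other 14 genes.

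Chemokines that draw T cells were among the largest rises. CXCL11 and CXCL10 are ligands of the receptor CXCR3. CXCL10 stood at 352 and 62.1 CPM with cetuximab and 23.9 and 9.303 CPM with PBS. Cetuximab replicate 1 stood far over cetuximab replicate 2, and both over the PBS samples (9.95-fold, 3.31 ± 0.73, FDR = 0.0439). CXCL11 stood at 63.5 and 14.2 CPM with cetuximab and 5.198 and 1.14 CPM with PBS in the same order (3.62 ± 0.49, FDR = 0.012). CCL5, which draws T cells and monocytes, stood at 125 and 117 CPM with cetuximab and 20.3 and 9.09 CPM with PBS, alike in both cetuximab samples (3.15 ± 0.43, FDR = 0.012). A small share of cells held most CXCL10 transcripts. CXCL10 was found in 45.7% and 8.61% of cetuximab cells and 2.96% and 1.402% of PBS cells. In unthinned cells, the 5% with most CXCL10 held 74.6% and 96.3% of its UMIs with cetuximab and 98.8% and 100.0% with PBS. The PBS shares are near their ceiling because so few PBS cells held the gene. CCL5 was found in 19.5% and 15.9% of cetuximab cells and 6.502% and 2.87% of PBS cells. The other 12 chemokines tested were not called, and over all genes 2.46% were called higher. CXCL8, which draws neutrophils, differed between the cetuximab samples more than between the groups (253 and 20.1 against 64.6 and 62.7 CPM). With one pair left out, 1 (without replicate 1) or 2 (without replicate 2) chemokines were called.

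Among 14 cytokines, IL24 alone was called, where 4.45% of all genes were, and it fell. It had 12 and 29 UMIs with cetuximab and 135 and 173 with PBS (-2.84 ± 0.37, FDR = 0.0133). IL6 at 108 and 26.6 against 22.6 and 14.5 CPM and IL32 at 418 and 87.8 against 59.1 and 46.7 CPM were highest in cetuximab replicate 1 and not called (FDR = 0.0612 and 0.0701). IL1B stood at 105 and 61.04 against 162 and 189 CPM, with both cetuximab samples lower, again without a call (-1.13 ± 0.39, FDR = 0.149). Without replicate 2, IL6 and IL32 were called higher and IL24 lower, and without replicate 1 IL24 was not called. TNFSF13B, the B cell survival factor BAFF, belonged to no list and was among the 15 largest rises of all genes with a mean of at least 10 CPM (31.5 and 13.9 against 5.25 and 2.34 CPM, 2.58 ± 0.41, FDR = 0.0163). Of 8 immune evasion genes, PDCD1LG2 (PD-L2, 7.57 and 3.86 against 1.58 and 0.985 CPM, 2.12 ± 0.28, FDR = 0.0108) and VTCN1 (B7-H4, 1.81 and 1.804 against 0.894 and 0.545 CPM, 1.37 ± 0.30, FDR = 0.0449) were called higher. Over all genes 2.46% were called higher. CD274, which encodes PD-L1, was not called (7.23 and 3.14 against 3.03 and 2.05 CPM, FDR = 0.193). Without replicate 1 no immune evasion gene was called and without replicate 2 PDCD1LG2 alone was.

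Genes of the contractile cytoskeleton rose. Of 16, 7 were called higher, where 2.46% of all genes were, and none lower. The median log2 fold change was 0.71. TAGLN, the actin-binding protein transgelin, stood at 1217 and 657 CPM with cetuximab and 353 and 225 CPM with PBS. Both cetuximab samples lay over both PBS samples, a 3.17-fold rise (1.66 ± 0.19, FDR = 0.00649). MYL9, a myosin light chain, stood at 288 and 232 CPM with cetuximab and 96.7 and 109 CPM with PBS (1.33 ± 0.17, FDR = 0.0102). TPM1, a tropomyosin, stood at 1181 and 937 CPM with cetuximab and 656 and 536 CPM with PBS (0.83 ± 0.11, FDR = 0.012), and CALD1, caldesmon, rose by a like amount (624 and 431 against 350.1 and 235 CPM, 0.85 ± 0.14, FDR = 0.0163). ACTG2, smooth muscle gamma actin, rose 6.99-fold from a low level (4.396 and 2.42 against 0.643 and 0.335 CPM, 2.81 ± 0.19, FDR = 0.000862). CNN1 and SYNPO2 were called at under 1 CPM in all samples. ACTA2, smooth muscle alpha actin, went the other way without a call (4.53 and 4.19 against 5.25 and 7.27 CPM, FDR = 0.44). With one pair left out, 1 (without replicate 1) or 3 (without replicate 2) of the list were called.

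Several targets of TGF-beta and YAP rose. Of 15, 7 were called higher and 1 lower, where 2.46% and 1.99% of all genes were. The median log2 fold change was 0.75. TGFB2, a TGF-beta ligand, stood at 26.4 and 17.7 CPM with cetuximab and 4.36 and 1.97 CPM with PBS. The levels of the groups were far apart, a 7.34-fold rise (2.88 ± 0.25, FDR = 0.0025), and cells with a UMI made up 23.9% and 18.6% of cetuximab cells and 4.77% and 2.07% of PBS cells. ANKRD1, a YAP target, stood at 53.8 and 20.9 CPM with cetuximab and 12.9 and 2.94 CPM with PBS (2.43 ± 0.47, FDR = 0.0298). PMEPA1 and SKIL, feedback inhibitors of SMAD signalling, stood at 47.6 and 19.8 against 13.1 and 6.36 CPM (1.75 ± 0.19, FDR = 0.00523) and 169 and 108 against 77.6 and 49.5 CPM (1.12 ± 0.13, FDR = 0.0054). CTGF and THBS1 were also called higher, with log2 fold changes of 0.75 ± 0.14 and 0.75 ± 0.15. THBS1 overlapped between groups (109 and 62.9 against 71.2 and 34.1 CPM), as did TGFBI, a secreted adhesion protein, which was called lower (74.2 and 157 against 132 and 320.2 CPM, -0.93 ± 0.18, FDR = 0.0297). With one pair left out, 1 (without replicate 1) or 3 (without replicate 2) were called. Across cells of a sample, contractile and TGF-beta and YAP UMIs went together, with Spearman correlations of 0.49 and 0.52 with cetuximab and 0.37 and 0.43 with PBS.

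Matrix and mesenchymal genes split. Of 17 in the list of the mesenchymal state, 5 were called higher and 1 lower, where 2.46% and 1.99% of all genes were. The median was 0.10. Without replicate 1 the median was -0.03 with 1 call, and without replicate 2 it was 0.14 with 3 calls. FN1, fibronectin, stood at 1071 and 579 CPM with cetuximab and 390.3 and 217 CPM with PBS (1.44 ± 0.12, FDR = 0.00247). SPARC, a matrix-binding glycoprotein, stood at 575 and 431 CPM with cetuximab and 164 and 166 CPM with PBS (1.59 ± 0.20, FDR = 0.00811). CDH2, N-cadherin, stood at 15.5 and 7.55 CPM with cetuximab and 4.32 and 2.82 CPM with PBS (1.64 ± 0.17, FDR = 0.00458). Each of these was higher in both cetuximab samples than in either PBS sample. COL1A2 and COL5A1, collagen chains, rose by 1.37 ± 0.21 and 1.82 ± 0.38 on the log2 scale. CDH1, E-cadherin, was not called (33.4 and 30.8 against 22.6 and 19.4 CPM, FDR = 0.103). None of 17 epithelial junction genes was called, where 4.45% of all genes were, and their median was 0.10. All 8 fibroblast markers counted at the start had a positive log2 fold change, with a median of 2.47, as did 9091 of all 17897 genes. Of these markers COL1A2, DCN and LUM were called higher, where 2.46% of all genes were. DCN had 84 and 23 UMIs with cetuximab and 7 and 2 with PBS, and LUM had 10 and 14 UMIs with cetuximab and 1 and 1 with PBS. PDGFRB, another marker of this list, had 0 or 1 UMI in each sample. The part of this marker list in the rise of matrix genes was not tested.

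VIM, which encodes vimentin and was the mesenchymal marker of the study, was nearly absent and fell further. It stood at 0.628 and 1.11 CPM with cetuximab and 2.03 and 6.59 CPM with PBS (-2.21 ± 0.39, FDR = 0.0233), and at 15000 UMIs it was found in 0.853% and 0.817% of cetuximab cells and 2.06% and 2.5% of PBS cells. Most of its signal came from few cells. Of 912 VIM UMIs in SCC1, 16 cells held 59.6%, and these were 2 cells of cetuximab replicate 2, 4 of PBS replicate 1 and 10 of PBS replicate 2. Without them VIM stood at 0.719 and 0.713 CPM with cetuximab and at 1.57 and 1.90 CPM with PBS, on unscaled totals, so that the order of the groups stayed.

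**Figure D4:**
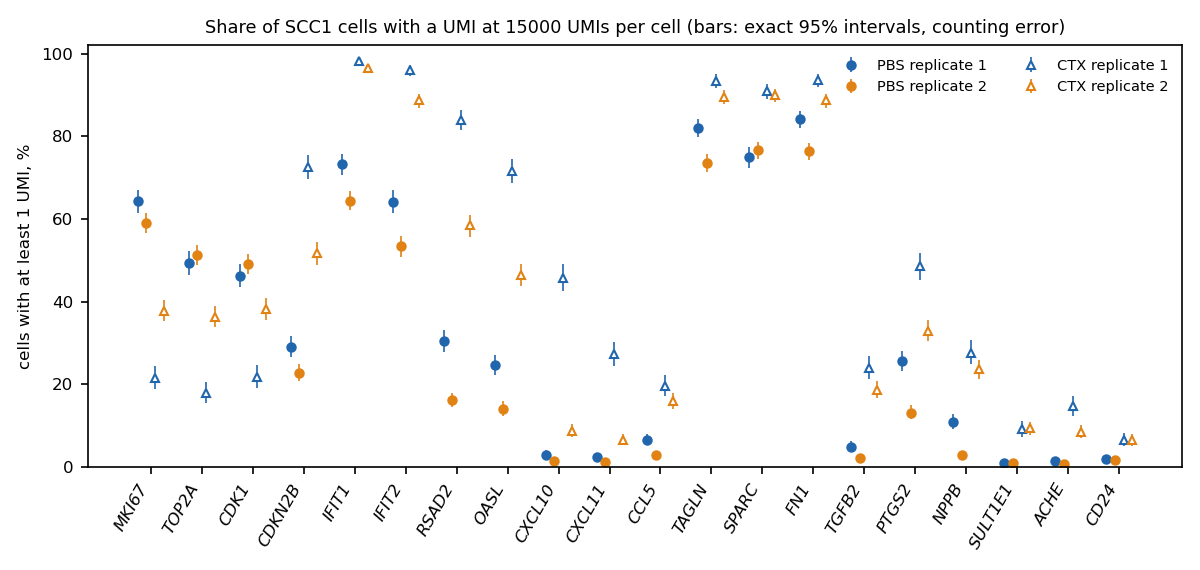
Share of SCC1 cells with at least 1 UMI of 20 genes (vertical axis, %) after thinning to 15000 UMIs per cell, with filled circles for PBS, open triangles for cetuximab, one colour per replicate number and bars for exact 95% intervals that cover counting error only. IFIT1 and TAGLN were found in most cells of every sample, whereas CCL5, SULT1E1 and CD24 were found in under 20% of cells even with cetuximab.

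Keratins rose in part. KRT14, the keratin of basal cells, stood at 2285 and 2095 CPM with cetuximab and 1155 and 1363 CPM with PBS, with both cetuximab samples higher (0.80 ± 0.13, FDR = 0.0161), while its partner KRT5 was not called and its groups overlapped (324 and 498 against 332 and 577 CPM, -0.12 ± 0.15, FDR = 0.715). LAMA3, a chain of the basement membrane laminin, rose (29.4 and 19.1 against 13.6 and 10.8 CPM, 0.97 ± 0.15, FDR = 0.0161), and CD44, the hyaluronan receptor, fell (26.5 and 36.3 against 42.3 and 80.7 CPM, -0.92 ± 0.21, FDR = 0.0482). These are 2 rises and 1 fall among 15 basal keratinocyte genes, of which none was called without replicate 1 and KRT14 alone without replicate 2. Of 10 keratins of wounds and simple epithelia, KRT16 (33.9 and 38.6 against 15.7 and 17.4 CPM), KRT8 (2725 and 2810.2 against 1316 and 1809 CPM) and KRT7 (4477 and 4971 against 2819 and 3415 CPM) were called higher, with log2 fold changes of 1.13 ± 0.17, 0.84 ± 0.16 and 0.60 ± 0.12, and the median was 0.72. Over all genes 2.46% were called higher and 1.99% lower. KRT16 and other type I keratins have close copies, so reads shared between them make their single values uncertain. With either pair left out no wound or simple keratin was called.

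Squamous differentiation genes gave 2 calls in opposite directions. Of 27 genes 22 were tested, with a median log2 fold change of 0.13, 1 called higher and 1 lower, where 4.45% of all genes were called. The pairs differed here: without replicate 2 the median turned to -0.61, with 1 gene called higher and 4 lower, and without replicate 1 it was 0.13, with 2 called higher and none lower. TGM1, the transglutaminase that cross-links the cornified envelope, stood at 12.1 and 7.52 CPM with cetuximab and 3.49 and 3.31 CPM with PBS (1.49 ± 0.25, FDR = 0.0181). LY6D, a surface protein of squamous cells, stood at 7.98 and 14.7 CPM with cetuximab and 19.5 and 24.2 CPM with PBS (-1.0 ± 0.16, FDR = 0.0161). Among 17 squamous transcription factors only SOX4 was called, near the share over all genes. It stood at 156 and 81.4 CPM with cetuximab and 43.3 and 33.8 CPM with PBS (1.56 ± 0.21, FDR = 0.0108).

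Some of the largest rises were of genes that are scarce in untreated cells. NPPB, the precursor of brain natriuretic peptide, stood at 138 and 84.3 CPM with cetuximab and 19.03 and 4.704 CPM with PBS. It rose 11.3-fold (3.5 ± 0.34, FDR = 0.00367), although the PBS samples differed from each other. NPPB was found in 27.6% and 23.6% of cetuximab cells and 10.9% and 2.805% of PBS cells. In unthinned cells, the 5% with most NPPB held 67.9% and 70.9% of its UMIs with cetuximab and 70.4% and 93.3% with PBS. The share in PBS replicate 2 is high because so few of its cells held the gene. SULT1E1, which sulfates oestrogen, stood at 8.24 and 6.77 CPM with cetuximab and 0.685 and 0.555 CPM with PBS, nearly alike within each group (12.1-fold, 3.6 ± 0.27, FDR = 0.00134). ACHE, acetylcholinesterase, stood at 11.5 and 6.98 CPM with cetuximab and 1.02 and 0.545 CPM with PBS (3.58 ± 0.22, FDR = 0.000636). SULT2B1, which sulfates cholesterol, rose as well (4.79 and 7.41 against 2.53 and 3.88 CPM, 0.93 ± 0.20, FDR = 0.0395). It was the fourth called rise among 8 tested genes of a list that also holds NPPB, SULT1E1 and ACHE, with a median of 1.41. Like the other lists, that list was chosen with earlier results of these data known, so its count and median add no support. Few cells held SULT1E1 or ACHE. SULT1E1 was found in 9.06% and 9.28% of cetuximab cells and 0.905% and 0.915% of PBS cells, and ACHE in 14.6% and 8.39% of cetuximab cells and 1.399% and 0.732% of PBS cells.

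CD24, a surface glycoprotein often used with CD44 to sort tumour cells, stood at 8.61 and 7.502 CPM with cetuximab and 1.13 and 1.14 CPM with PBS. It rose 7.04-fold (2.82 ± 0.13, FDR = 0.000217) and was also called without the pairing (FDR = 0.00761), as were SULT1E1 (FDR = 0.00635) and ACHE (FDR = 0.0474). Cells with a CD24 UMI made up 6.397% and 6.38% of cetuximab cells and 1.81% and 1.59% of PBS cells, so that no CD24 UMI was seen in most cells. PTGS2, the cyclooxygenase that starts prostaglandin synthesis, stood at 57.1 and 32.5 CPM with cetuximab and 23.2 and 11.6 CPM with PBS (1.39 ± 0.13, FDR = 0.00316). PTGES, which completes prostaglandin E2, rose with it (23.4 and 24.4 against 7.99 and 9.78 CPM, 1.43 ± 0.24, FDR = 0.0175). They were the 2 calls among 9 prostaglandin genes, where 2.46% of all genes were called higher. HRASLS2, a phospholipid acyltransferase, belonged to no list and was the third largest called rise of genes with a mean of at least 10 CPM (25.7 and 12.7 against 2.54 and 1.23 CPM, 3.36 ± 0.19, FDR = 0.000514). HIST1H1A, a linker histone, was the largest called fall of such genes (4.49 and 5.81 against 22.99 and 19.4 CPM, -2.04 ± 0.30, FDR = 0.0142).

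Several lists gave no call, where 4.45% of all genes were called. No gene was called among 18 of sterol synthesis, 14 of the integrated stress response, 12 of the BCL2 family and 12 of FOXO and PI3K feedback. The median log2 fold changes of these lists were 0.10, 0.11, 0.24 and 0.52. At an unadjusted p under 0.05 in the edgeR test stood 2, 2, 4 and 4 members, and 3548 of all 17897 genes. In the FOXO and PI3K feedback list both cetuximab samples lay over both PBS samples for 10 of 12 genes, which was so for 22.3% of all genes. Among 18 genes of glycolysis and hypoxia only CA9, a carbonic anhydrase induced by hypoxia, was called, and it fell (0.506 and 1.44 against 2.28 and 5.37 CPM, -2.02 ± 0.41, FDR = 0.0335). A gene without a call is not shown to be unchanged.

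To ask where SCC1 differed from the other lines, its change was tested against the mean change of SCC6 and SCC25 in the same fit. The difference was called for 50 of 17897 genes (0.279%), 34 with a higher change in SCC1 (0.19%) and 16 with a lower one (0.0894%). For 382 of the genes tested, SCC6 or SCC25 had no UMI and this test has no meaning. CD24 rose by 2.82 ± 0.13 in SCC1 on the log2 scale and changed by 0.91 ± 0.11 in SCC6 and 0.25 ± 0.11 in SCC25, from levels there of 296.4 to 830.7 CPM, so that SCC1 differed by 2.24 ± 0.15, FDR = 0.00278. OASL changed by -1.35 ± 0.23 in SCC6 and 0.13 ± 0.16 in SCC25, against 2.42 ± 0.17 in SCC1 (difference 3.03 ± 0.22, FDR = 0.00278). ABCG2, a drug efflux pump, rose in SCC1 (22.2 and 21.3 against 9.63 and 10.5 CPM) and changed by -1.07 ± 0.16 in SCC6 and -0.67 ± 0.16 in SCC25 (difference 1.98 ± 0.19, FDR = 0.0175). AKR1C2, an aldo-keto reductase of steroids, stood at 77.1 and 55.7 against 21.7 and 29.4 CPM in SCC1 and changed by -1.53 ± 0.21 in SCC6 and -0.77 ± 0.20 in SCC25 (difference 2.53 ± 0.25, FDR = 0.0175). CLU, the chaperone clusterin, stood at 49.6 and 60.3 against 16.01 and 19.9 CPM in SCC1 and changed by 0.03 ± 0.14 in SCC6 and -0.83 ± 0.14 in SCC25 (difference 2.02 ± 0.18, FDR = 0.0101).

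VIM gave the widest gap of the genes named here, since it changed by 3.88 ± 0.36 in SCC6 and 0.66 ± 0.32 in SCC25, against -2.21 ± 0.39 in SCC1 (difference -4.48 ± 0.46, FDR = 0.0175). The contractile protein TPM1 rose in all 3 lines, but less in SCC1, with 2.78 ± 0.12 in SCC6 and 1.36 ± 0.12 in SCC25 (difference -1.24 ± 0.14, FDR = 0.0275), and ACTA2 changed by 2.42 ± 0.34 in SCC6 and 2.27 ± 0.34 in SCC25 (difference -2.85 ± 0.41, FDR = 0.0423). By contrast, no gene of the G2 and mitosis list was called for a difference, although the median change was -1.21 in SCC1 and -0.48 in both SCC6 and SCC25. Of the 38 interferon-stimulated genes 2 differed, OASL and IFIT2, with list medians of 1.04 in SCC1, 0.04 in SCC6 and 1.03 in SCC25. NPPB rose in all lines, by 6.42 ± 0.54 in SCC6 and 3.47 ± 0.54 in SCC25, and its difference was not called. Without replicate 1 of SCC1 7 differences were called, without replicate 2 5, and without the pairing none, with 808 genes then at an unadjusted p under 0.05. DESeq2 called 407 with the pairing and 42 without it.

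**Figure D5:**
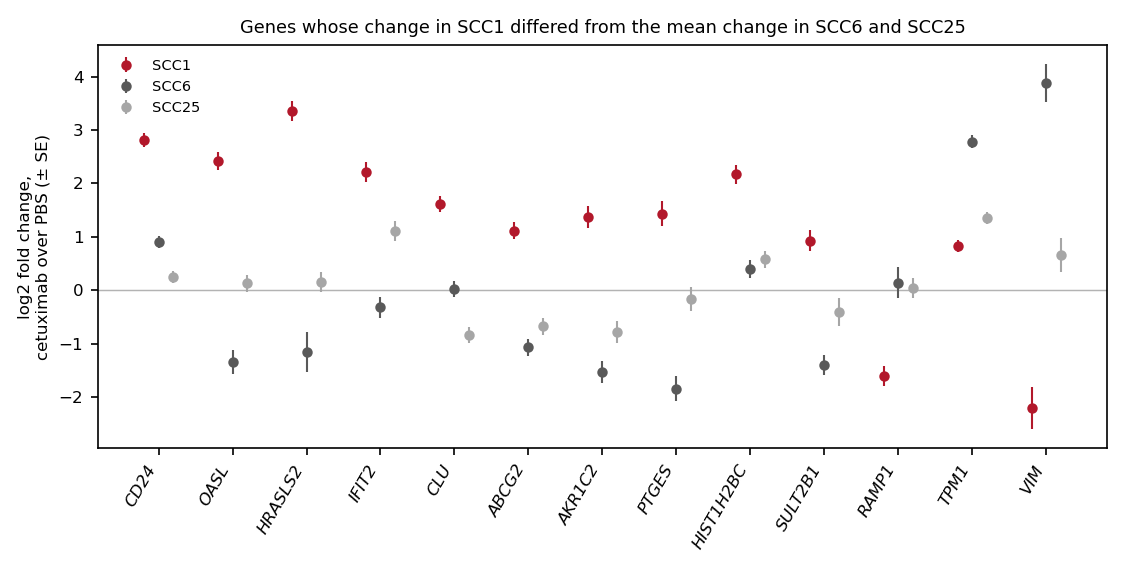
Log2 fold change of cetuximab over PBS (vertical axis, bars are SE) in SCC1, SCC6 and SCC25 for 13 of the genes whose change in SCC1 differed from the mean of the other lines at FDR of at most 0.05. SCC1 lies over both other lines for 10 of them, from CD24 to SULT2B1, and under both for RAMP1, TPM1 and VIM.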

How the data were processed

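Single-cell libraries (10x 3′ chemistry, v2) of 12 samples were processed by the authors with Cell Ranger and GRCh38, per the labels, and cells were filtered with Monocle. The version of Cell Ranger is not given in the sources used here. The deposited tables hold raw UMI counts per gene and cell, 33538 lines under 33514 symbols, of which 24 symbols on more than 1 line were summed. Groups and replicate numbers came from the labels. Counts were summed per sample, filtered with filterByExpr and tested in edgeR 4.0.16 (R 4.3.3) by quasi-likelihood F-tests with TMM factors. All 12 samples entered 1 fit with a replicate block per line and 3 residual degrees of freedom. CPM are scaled with TMM. Tests were two-sided, with Benjamini-Hochberg adjustment over all genes.

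Replicate numbers pair the samples by a check on the data. The differences between replicates 1 and 2 with cetuximab and with PBS correlated across 7558 genes at 0.676 in SCC1, 0.630 in SCC6 and 0.722 in SCC25. Replicates of SCC1 differed beyond counting noise (chi-square per degree of freedom 143 and 160), so none was a library deposited more than once.

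Cells were thinned without replacement, no doublet caller was run, and no cells were clustered. Intervals are exact Clopper-Pearson intervals at 95%. Depth leaves the spread between libraries as the limit for all but rare transcripts. Genes were named by rule: the 15 largest rises and falls with a mean of at least 10 CPM, up to 5 genes of smallest p per list with those that show its range, a fixed set (EGFR, TFAP2A, VIM, AXL, NPPB, SULT1E1, CD24, ACHE, CXCL10, CCL5, MKI67 and CENPF), and 6 genes for the difference between lines. Part of the genes so named are printed. Members, lists and tests were chosen with earlier results of these data known. The fitting step was tested on simulated counts drawn without a replicate effect, so that test does not cover the pairing. DESeq2 (version 1.42.0) was an alternative. Promoter sequences are from RefSeq, GRCh38.p14. IFIT2, MX2, OAS2, OASL, IRF7, USP18 and DDX58, AURKA, TPX2, UBE2C, BIRC5 and TTK, and MCM4 and MCM5 were among members with no entry in the promoter table. A few list members are counted but not reported here.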

Additional observations from a re-analysis of the deposited data

Results flagged for a closer look

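The change with cetuximab differed between SCC1 and the mean of SCC6 and SCC25 by the edgeR test of the difference itself for 50 genes at FDR of at most 0.05. Of the genes named in the text, 15 were among them. The change in SCC1 exceeded the mean of the other lines on the log2 scale by 3.86 for HRASLS2, 3.03 for OASL, 2.53 for AKR1C2, 2.43 for PTGES, 2.24 for CD24, 2.02 for CLU, 1.98 for ABCG2, 1.83 for SULT2B1, 1.81 for IFIT2, 1.68 for HIST1H2BC and 1.67 for AKR1C3. It was lower than that mean for VIM (-4.48), ACTA2 (-2.85), RAMP1, a subunit of the receptor of calcitonin gene-related peptide (-1.7), and TPM1 (-1.24). HRASLS2 changed by -1.16 ± 0.38 in SCC6 and 0.15 ± 0.19 in SCC25, where it was a scarce transcript at 0.0519 to 1.82 CPM. The cause of these differences was not tested.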

How the results depend on the processing

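The counts of calls depend on the pairing and on the samples in the fit. Of genes called in SCC1 (797), list members called (114 of 458) and genes that differed between lines (50), 3, 3 and 0 were called with no replicate block, and 133, 23 and 0 with 1 block shared by the lines. The 4 SCC1 samples alone gave 2948 genes and 255 members with the block and 0 and 0 without it, with 2054 genes then at an unadjusted p under 0.05. DESeq2 gave 1489, 173 and 407 with the block, and 271 and 36 without it. With no filter on low counts 1280 genes and 258 differences were called, and a mean of at least 10 CPM left 22 differences between lines. Leaving out an SCC1 pair gave 40 to 269 genes, 16 to 66 members and 5 to 7 differences. With no replicate block and each SCC1 sample left out in turn these were 0 to 6, 0 to 3 and 0, and only the fit without cetuximab replicate 2 made any calls. At an unadjusted p under 0.05 the others held 558 to 1113 genes. Of 87 called genes whose values are given, 19 stayed called without replicate 1 and 48 without replicate 2, and none changed direction under any alternative fit. These fits reuse samples that made the calls, so the kept direction is no independent check. EGFR, which was not called, turned to -0.0531 without cetuximab replicate 2 and to -0.0297 without PBS replicate 1, both with no replicate block. Without cetuximab replicate 1 and with no replicate block, KRT5 turned to 0.12 and CXCL8 to -1.67, and without PBS replicate 2 KRT5 turned to 0.31, none of them with a call. With 1 pair at a time CXCL8 ranged from -1.63 to 1.96. DESeq2 size factors, thinned totals and leaving out cells of high mitochondrial share, of low depth or of highest depth kept each of these 3 counts within 1.5 times. Shares of cells rose with depth, and the direction of the difference was the same at 8000 UMIs and unthinned for each gene whose share is given per sample.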

Other observations

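The genes below were chosen after their values were seen, and each edgeR call is that of the paired fit. Histone genes moved in opposite directions. Of 57 genes tested whose symbols start with HIST, 9 were called higher and 9 lower, with a median log2 fold change of -0.18. Over all genes 2.46% were called higher and 1.99% lower. Of the rises, 6 were of H2A and H2B genes, 2 of H4 genes and 1 of an H3 gene, and of the falls, 4 were of linker histones, 4 of H2A and H2B genes and 1 of an H4 gene. HIST1H2BC stood at 59.1 and 32.1 CPM with cetuximab and 10.9 and 8.601 CPM with PBS, HIST1H2AC at 176 and 125 CPM with cetuximab and 47.3 and 47.02 CPM with PBS and HIST2H2BE at 39.5 and 26.7 CPM with cetuximab and 10.7 and 9.32 CPM with PBS. In these genes both cetuximab samples lay over both PBS samples. HIST1H4C, the H4 gene that fell, stood at 366 and 376 CPM with cetuximab and 1049 and 784 CPM with PBS (-1.29 ± 0.14, FDR = 0.00523). Histone genes are close copies of each other and most of their transcripts lack the poly(A) tail that the method captures, so single values are uncertain.

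Of called rises beyond the lists, the following encode secreted factors. EDN1, endothelin, stood at 198 and 104 CPM with cetuximab and 55.9 and 34.3 CPM with PBS (1.71 ± 0.28, FDR = 0.0167). FSTL3, an inhibitor of activin, stood at 135 and 75.4 CPM with cetuximab and 36.1 and 18.1 CPM with PBS (1.98 ± 0.13, FDR = 0.000862). BDNF, a neurotrophin, WNT6 and WNT7A rose by 1.98 ± 0.27, 1.69 ± 0.23 and 1.17 ± 0.15 on the log2 scale. For each of them both cetuximab samples lay over both PBS samples.

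AKR1C3, an aldo-keto reductase, stood at 134 and 146 CPM with cetuximab and 55.4 and 61.6 CPM with PBS (1.26 ± 0.15, FDR = 0.00793), and the glutathione transferases GSTM3 and GSTM4 rose by 1.4 ± 0.15 and 1.15 ± 0.16. AKR1C and GSTM genes have close copies, so reads could be split between them. AQP3, a water and glycerol channel of keratinocytes, fell (18.5 and 28.2 against 38.3 and 84.6 CPM, -1.32 ± 0.18, FDR = 0.0121), and HMGA2, a chromatin protein of growing cells, fell (9.298 and 9.06 against 18.4 and 21.1 CPM, -1.1 ± 0.15, FDR = 0.0112).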
